A study of Mus musculus with 15 samples.

Results

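Mouse CD8+ T cells cultured for 22 h with peptide-pulsed dendritic cells were compared with unstimulated cells of the same kind at 0 h. The comparison takes 6 of the 15 bulk RNA libraries of the study, the 3 labelled as dendritic cell at 22 h (called DC 22 h) and the 3 labelled unstimulated, and it covers every gene of the deposited count tables. Of 17493 genes, 10831 had enough counts to be tested. All groups were OT-I cells of the strain C57BL/6-Tg(TcraTcrb)1100Mjb/Crl, taken from lymph nodes and spleens of females, whose transgenic T cell receptor recognises an ovalbumin peptide on MHC class I. DC 22 h wells held 50000 T cells and 20000 dendritic cells grown with Flt3 ligand and loaded with SIITFEKL, an altered form of that peptide. The unstimulated cells had no treatment, and the labels give neither ages nor how many mice were pooled. No group held T cells cultured for 8 or 22 h without a stimulus. Effects of time in culture and of the dendritic cells therefore cannot be told apart. The 3 libraries at 8 h with the same dendritic cells (DC 8 h) served to ask what differed at the later time. Viable CD8+ CD103- cells were sorted before lysis in all groups. Sample titles number the replicates Don1, Don2 and Don3 in every group, called replicates 1 to 3 here. What the number stands for is not spelled out, nor whether replicates came from separate mice or cultures. The p-values therefore measure a spread between libraries, pooled over all 15, which may be in part technical.

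A CD8+ T cell that meets its peptide signals through the CD3 complex and switches on immediate early transcription factors such as Fos and the Egr family within minutes. NF-kappaB and interleukin-2 signalling through STAT5 follow, the cell builds ribosomes and sterols, and it then enters the cell cycle, while genes of naive, recirculating cells such as S1pr1 and Klf2 are turned down. Dendritic cells provide the peptide on MHC class I together with costimulation.

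Expression is given as normalised read counts, in CPM (counts scaled to a common library total) after TMM scaling (trimmed mean of M values), for replicates 1, 2 and 3 in that order. A gene was called where its adjusted p (edgeR quasi-likelihood test, two-sided, Benjamini-Hochberg over all 10831 genes) was under 0.05. Fold changes are log2 values of DC 22 h over unstimulated with their standard errors (SE), and n = 3 libraries in each group throughout. Total counts were 4957658 to 7958411 in unstimulated libraries, 8032837 to 10992612 at DC 22 h and 6490604 to 9821932 at DC 8 h. TMM factors were 0.857 to 0.872 in unstimulated and 1.06 to 1.11 in DC 22 h libraries. Mitochondrial ribosomal RNA took 2.76%, 1.95% and 4.49% of counts in the DC 22 h libraries against 2.32% to 2.81% in unstimulated ones, so replicate 3 stood apart. Its part in the results was not tested. Of 7 markers of the labelled cell type, CD8 T cells, all had counts in every library, with summed levels of 9736 to 10584 CPM unstimulated and 4908 to 6118 CPM at DC 22 h.

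At 22 h, 840 genes (7.76%) were called, 369 higher (3.41%) and 471 lower (4.35%) than in unstimulated cells. These shares are the background for the list counts below. The values of both groups did not overlap in 817 of the 840. Choosing genes by the test favours such separation, and the share over all genes tested is not given here. The median log2 fold change over all genes tested was 0.04. Leaving out DC 22 h replicate 2 gave 540 calls, and leaving out the unstimulated libraries gave 481 (replicate 1), 454 (replicate 2) and 485 (replicate 3). In all, 330 of the genes were called without each of the 6 libraries in turn. The 12 genes with the strongest rise by the naming rule were Cables1, Serpine2, Fscn1, Kit, Hic1, Lad1, Il2ra, Tnfrsf9, Lrrc6, Selp, Iigp1 and Cnih2, with log2 fold changes from 4.12 to 6.44. The 12 with the strongest fall were Hspa1b, Fos, Fosb, Dusp1, Igj, Dnase1l3, Ppp1r15a, Rgs2, Klf4, Ampd1, Jun and D8Ertd82e, from -8.51 to -2.98. All 12 of the latter and 8 of the former were called without each library in turn. Serpine2 was lost without DC 22 h replicate 2 or unstimulated replicate 2 or 3 (adjusted p up to 0.0595), and Iigp1 and Cnih2 without DC 22 h replicate 2 or unstimulated replicate 1 or 3 (up to 0.181 and 0.0744). With library size alone in place of TMM the median of all genes moved to 0.37, and 1354 genes were called higher and 232 lower, 85.4% higher against 43.9% with TMM. Changes below are relative to the TMM scale.

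**Figure D1:**
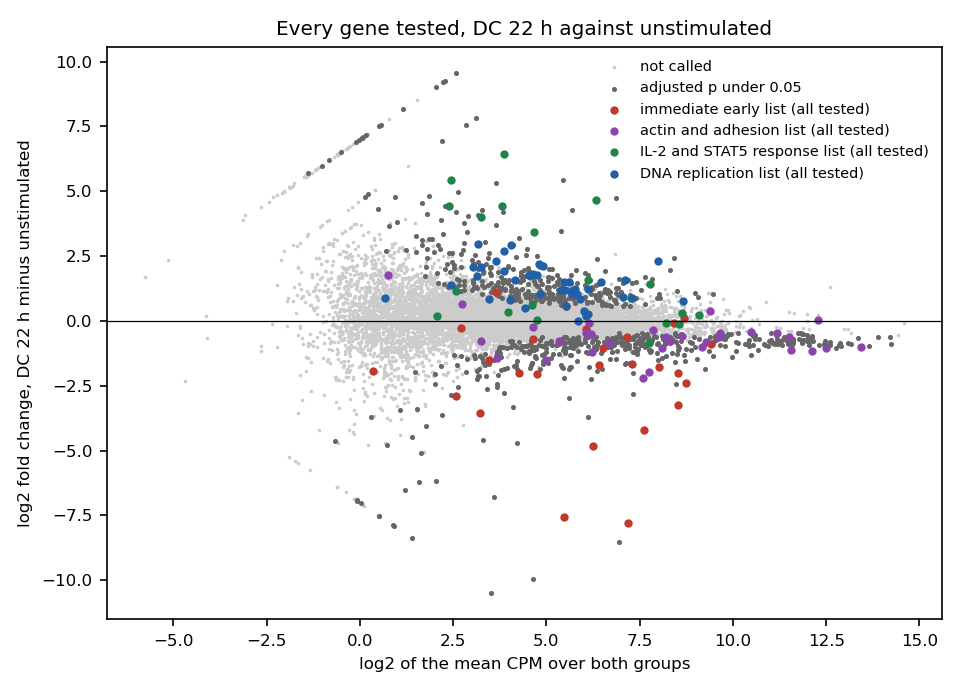
Log2 fold change of DC 22 h over unstimulated cells against the log2 mean CPM of both groups, for genes with a count in either group; grey points were not called, dark points passed an adjusted p of 0.05, and colours mark all tested members of 4 lists. Immediate early genes lie mostly below 0, down to -7.78, DNA replication genes mostly above 0; the straight diagonals at the left are genes with a group at 0 counts, whose fitted values depend on the prior count.

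Receptors moved in both directions. Tnfrsf9, the costimulatory receptor 4-1BB, had 4.99, 6.14 and 3.49 CPM in unstimulated libraries and 69, 191 and 32.3 CPM at 22 h. All 3 DC 22 h libraries were above all unstimulated ones, with replicate 2 highest (log2 fold change 4.30 ± 0.62, adjusted p = 0.000554). Kit, the stem cell factor receptor, had 0.881, 0 and 0.931 CPM against 27.1, 30.1 and 15.8 CPM (log2 fold change 5.30 ± 0.57, adjusted p = 4.84e-05). Selp, the adhesion receptor P-selectin, went from 0.294, 1.45 and 0 CPM to 8.08, 12.7 and 13 CPM (log2 fold change 4.20 ± 0.66, adjusted p = 0.000981). Kit and Selp came from the whole table and are not on the activation receptor list. Ctla4, an inhibitory receptor that binds CD80 and CD86, had 3.08, 2.89 and 4.19 CPM against 21.7, 18.7 and 13.9 CPM (log2 fold change 2.43 ± 0.28, adjusted p = 8.43e-05), and the groups did not overlap. Of 9 inhibitory receptors tested 1 was called, and 2 without DC 22 h replicate 3, with DESeq2 or with library size alone. In a fit of the 6 libraries compared, 1 was higher and 1 lower of 6 tested. Lag3, another inhibitory receptor, had 2.39, 9.73 and 0.598 CPM at 22 h and was not called (adjusted p = 0.0985). Of 18 activation receptors 3 were higher and 5 lower, with 1 higher and 3 lower without unstimulated replicate 1, 3 lower without DC 22 h replicate 1 and 2 lower without unstimulated replicate 3. The balance turned to 6 higher and 2 lower with library size alone, and to 2 and 2 in a fit of the 6 libraries compared. Tfrc, the transferrin receptor, was higher at 77.1, 159 and 50.8 CPM against 33.3, 40.8 and 34.9 CPM, a call that was lost without unstimulated replicate 1 (adjusted p = 0.0514). Cd69, an early activation marker that retains cells in tissue, was lower at 60.0, 80.0 and 63.5 CPM against 229, 153 and 250.4 CPM (log2 fold change -1.64 ± 0.28, adjusted p = 0.00199). Cd5, a brake on T cell receptor signalling, fell from 105, 119 and 104 CPM to 59.6, 40.5 and 55.5 CPM (log2 fold change -1.07 ± 0.17, adjusted p = 0.000943).

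Of 21 genes of the interleukin-2 and STAT5 response tested, 10 were higher, 1 lower and 10 not called, with a median log2 fold change of 1.16 against 0.04 over all genes, and 8 to 11 were higher in fits with 1 library left out. The median was 0.62 without DC 22 h replicate 2. Cables1, Lad1 and Serpine2, all on this list, are also among the 12 strongest rises of the whole table. They were listed with earlier results of these data known, so the count and median are not independent of these data. The highest was Cables1, a cyclin-dependent kinase adaptor, with 0, 0 and 1.16 CPM unstimulated and 19.5, 56.7 and 9.57 CPM at 22 h (log2 fold change 6.44 ± 0.89, adjusted p = 0.000355). Lad1, which encodes the basement membrane protein ladinin, rose from 5.87, 4.7 and 7.91 CPM to 138, 225 and 102 CPM (log2 fold change 4.67 ± 0.42, adjusted p = 5.38e-06). The libraries of each group kept apart for both genes. Il2ra, the alpha chain of the interleukin-2 receptor, had 1.17, 0.361 and 2.33 CPM against 10.0, 66 and 3.93 CPM (log2 fold change 4.42 ± 0.96, adjusted p = 0.00933), and its adjusted p reached 0.0549 when unstimulated replicate 1 or 2 was left out. Replicate 2 was far above the others for this gene. Of the SOCS genes, which block cytokine receptor signalling, the 4 on this list rose. Cish had 29.4, 81.5 and 27.8 CPM against 4.55, 4.16 and 3.96 CPM (log2 fold change 3.44 ± 0.54, adjusted p = 0.00101). Socs1 had 234, 448 and 269 CPM against 109.8, 131 and 113 CPM (log2 fold change 1.43 ± 0.23, adjusted p = 0.00129). Socs2 rose by 3.99 and Socs3 by 1.56 on the log2 scale. These 4 were called in every fit with 1 library left out. Outside the list, Socs5 was also called (adjusted p = 0.0155, up to 0.0604 with 1 library left out), and Socs4, Socs6 and Socs7 were not (adjusted p = 0.836, 0.25 and 0.997). These 4 were looked up after the values were seen. Bcl2, a survival factor, was the lower member at 158, 180.2 and 123 CPM against 320.2, 241 and 279.5 CPM (log2 fold change -0.87 ± 0.20, adjusted p = 0.0135), and the call was lost without unstimulated replicate 1 (adjusted p = 0.0727). Its relative Bcl2l1, which encodes Bcl-xL, was higher at 32, 55.3 and 21.7 CPM against 8.07, 15.2 and 9.08 CPM, with an adjusted p of 0.0166 that reached 0.0817 without DC 22 h replicate 2, unstimulated replicate 1 or unstimulated replicate 3 in turn. The pro-apoptotic Bcl2l11, known as Bim, had 105, 96.2 and 115 CPM against 60.5, 46.8 and 27.7 CPM (log2 fold change 1.22 ± 0.23, adjusted p = 0.00348).

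Most immediate early genes were lower at 22 h than in unstimulated cells. Of 26 tested, 17 fell and none rose, with a median of -1.74, and 15 to 17 fell in the fits with 1 library left out, with 1 higher without DC 22 h replicate 2. Fos, a subunit of the AP-1 transcription factor, had 219, 257 and 399.6 CPM unstimulated and 0.455, 1.88 and 1.54 CPM at 22 h. The groups were far apart, and the DC 8 h libraries had 4.56, 7.33 and 1.91 CPM (log2 fold change -7.78 ± 0.53, adjusted p = 3.23e-07 at 22 h). Its partners Jun and Junb fell from 592, 512 and 881 CPM to 28.2, 135 and 48.9 CPM (log2 fold change -3.22 ± 0.44, adjusted p = 0.00033) and from 626, 753 and 777 CPM to 123, 132 and 159.8 CPM (log2 fold change -2.38 ± 0.17, adjusted p = 3.36e-07). Dusp1, a phosphatase that switches off MAP kinases, had 112, 124 and 206 CPM against 5.24, 3.1 and 6.92 CPM (log2 fold change -4.84 ± 0.34, adjusted p = 3.23e-07). Ppp1r15a, which encodes GADD34 and restores translation after stress, had 325, 354 and 438 CPM against 22.4, 14.7 and 22.9 CPM (log2 fold change -4.21 ± 0.30, adjusted p = 3.23e-07). Zfp36, an RNA-binding protein that destabilises cytokine messages, fell from 140.3, 109 and 145 CPM to 45.6, 26.5 and 48 CPM (log2 fold change -1.71 ± 0.26, adjusted p = 0.000775). These 6 were called without each library in turn. Nr4a1 and Egr2, which report on T cell receptor signalling, were not called, with 10.6, 40.6 and 6.15 CPM and 1.14, 13.7 and 2.56 CPM at 22 h. In both, replicate 2 lay above the other DC 22 h libraries. With library size alone 16 immediate early genes were lower and 2 higher.

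The promoters of 3 of these genes are shown as the 250 bases before the start of transcription in RefSeq on GRCm38.p6, 5′ to 3′ on the gene's strand, because they carry elements through which this class of genes is known to be induced. Capitals mark the cyclic AMP response element (CRE, TGACGTCA) in Dusp1 (chr17:26508473-26508722, minus strand) and Ppp1r15a (chr7:45526269-45526518, minus strand), and the CArG box, the serum response element core, in Zfp36 (chr7:28379229-28379478, minus strand).
Dusp1: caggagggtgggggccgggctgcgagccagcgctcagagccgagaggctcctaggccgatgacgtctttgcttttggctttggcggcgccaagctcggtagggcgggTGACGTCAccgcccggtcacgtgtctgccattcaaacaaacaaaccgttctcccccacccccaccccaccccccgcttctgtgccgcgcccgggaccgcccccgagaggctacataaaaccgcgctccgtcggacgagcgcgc
Ppp1r15a: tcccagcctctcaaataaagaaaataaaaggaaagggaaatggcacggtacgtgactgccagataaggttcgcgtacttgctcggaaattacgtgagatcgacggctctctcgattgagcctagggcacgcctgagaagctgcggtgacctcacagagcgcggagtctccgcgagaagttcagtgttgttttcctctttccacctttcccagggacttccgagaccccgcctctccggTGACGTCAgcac
Zfp36: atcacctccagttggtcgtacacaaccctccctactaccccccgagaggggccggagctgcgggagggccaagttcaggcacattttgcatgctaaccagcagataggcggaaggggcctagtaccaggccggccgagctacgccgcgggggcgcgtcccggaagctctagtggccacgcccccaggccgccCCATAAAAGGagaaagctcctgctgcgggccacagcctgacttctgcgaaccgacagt
Over windows of 300 bases that also take in 50 bases past the start, both strands searched, the CRE was in 3 of 26 windows of the list (11.5%) and in 1.79% of all 32851 promoter windows. The CArG box was in 6 of 26 (23.1%) against 1.63%. Several windows of a gene can overlap, and 22 of the 26 genes had an entry. Of the 3 genes with a CRE, 2 fell at 22 h, and of 3 with a CArG box, 1 fell. Over the whole list 17 of 26 genes tested fell.

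Heat shock genes moved unevenly. Hspa1b, an inducible Hsp70 chaperone, had 132, 238 and 365 CPM in unstimulated libraries and 0.797, 1.11 and 0.171 CPM at 22 h (log2 fold change -8.51 ± 0.52, adjusted p = 1.34e-07). The unstimulated libraries spread over a wide range, all of it far above the DC 22 h values. Hspa1a, its nearly identical neighbour on chromosome 17, had 21.1, 47 and 81.5 CPM against 0, 0.111 and 0 CPM, and counts can be split between these copies in a way that the tables do not show. Dnajb1, an Hsp40 co-chaperone, fell from 97, 90.9 and 132 CPM to 53.4, 60.9 and 54 CPM (log2 fold change -0.92 ± 0.18, adjusted p = 0.00451). Hspd1, the mitochondrial chaperonin Hsp60, was higher at 167, 411 and 117 CPM against 76.2, 77.5 and 95.9 CPM, with an adjusted p of 0.0293 that reached 0.178 without DC 22 h replicate 2 and was also lost without each unstimulated library. In all 1 of 19 tested members was higher and 3 lower, against 3.41% and 4.35% of all genes tested. The median was 0.24, or -0.04 without DC 22 h replicate 2, and 16 of 19 were highest in that replicate.

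Feedback regulators of signalling moved in both directions. Of 25 tested, 10 were lower and 5 higher, and the 5 were the 4 SOCS genes above and Cblb, a ubiquitin ligase. Among the lower ones were Rgs2, a regulator of G protein signalling, at 11.8, 3.54 and 13.8 CPM against 114, 113 and 159.7 CPM (log2 fold change -3.72 ± 0.41, adjusted p = 7e-05). Tnfaip3, the NF-kappaB inhibitor A20, fell from 96.6, 103 and 165 CPM to 19.6, 31.3 and 25.5 CPM (log2 fold change -2.25 ± 0.26, adjusted p = 9.08e-05), with no overlap. Dusp2, another MAP kinase phosphatase, fell from 568, 538 and 672 CPM to 179, 165 and 103 CPM (log2 fold change -1.99 ± 0.25, adjusted p = 0.000181). Cblb was higher by 0.83 on the log2 scale, a call lost without DC 22 h replicate 1, unstimulated replicate 1 or unstimulated replicate 2 (adjusted p up to 0.0713).

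Some messages of the T cell receptor complex and of the cytoskeleton fell. Cd3e, a signalling chain of the receptor, had 1696, 1368 and 1353 CPM unstimulated and 474, 520.2 and 671 CPM at 22 h (log2 fold change -1.41 ± 0.19, adjusted p = 0.00032). Cd3g, a further chain, fell from 1496, 1557 and 1400.0 CPM to 704, 544 and 761 CPM (log2 fold change -1.15 ± 0.19, adjusted p = 0.00115), and Cd8b1, the beta chain of the coreceptor, from 1901, 1868 and 1707 CPM to 984, 720.1 and 1108 CPM (log2 fold change -0.96 ± 0.16, adjusted p = 0.00152). Cd8a, the alpha chain, had 919, 999 and 970.1 CPM against 697, 813 and 736 CPM and was not called (adjusted p = 0.0998). Cd2, an adhesion and costimulatory receptor, fell from 907, 1032 and 899 CPM to 275, 215 and 295 CPM (log2 fold change -1.85 ± 0.16, adjusted p = 2.82e-06). For Cd3e, Cd3g, Cd8b1 and Cd2 the groups were fully apart. Of 26 T cell receptor signalling genes 8 were lower, 1, Ubash3a, higher and 17 not called, with a median of -0.47. The call of Ubash3a held only without DC 22 h replicate 3 (adjusted p up to 0.167). Of 32 actin and adhesion genes 18 were lower and none higher, with a median of -0.70, and 11 were lower without unstimulated replicate 1 or 2. Lgals1, the lectin galectin-1, had 288, 349 and 306 CPM against 72.2, 68.1 and 66 CPM (log2 fold change -2.19 ± 0.18, adjusted p = 2.58e-06). Vim, the intermediate filament vimentin, fell from 341, 353 and 334 CPM to 83.8, 80.6 and 100.4 CPM (log2 fold change -1.96 ± 0.21, adjusted p = 5.11e-05). Actb, cytoplasmic actin, fell from 14974, 15117 and 14088 CPM to 6204, 7806 and 7909.6 CPM (log2 fold change -1.01 ± 0.19, adjusted p = 0.00402). With library size alone the lower counts became 6 of 26, 10 of 32 and, for CD8 T cell markers, 4 of 7 in place of 5. In bulk RNA, fewer cells of a type and less RNA per cell cannot be told apart.

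**Figure D2:**
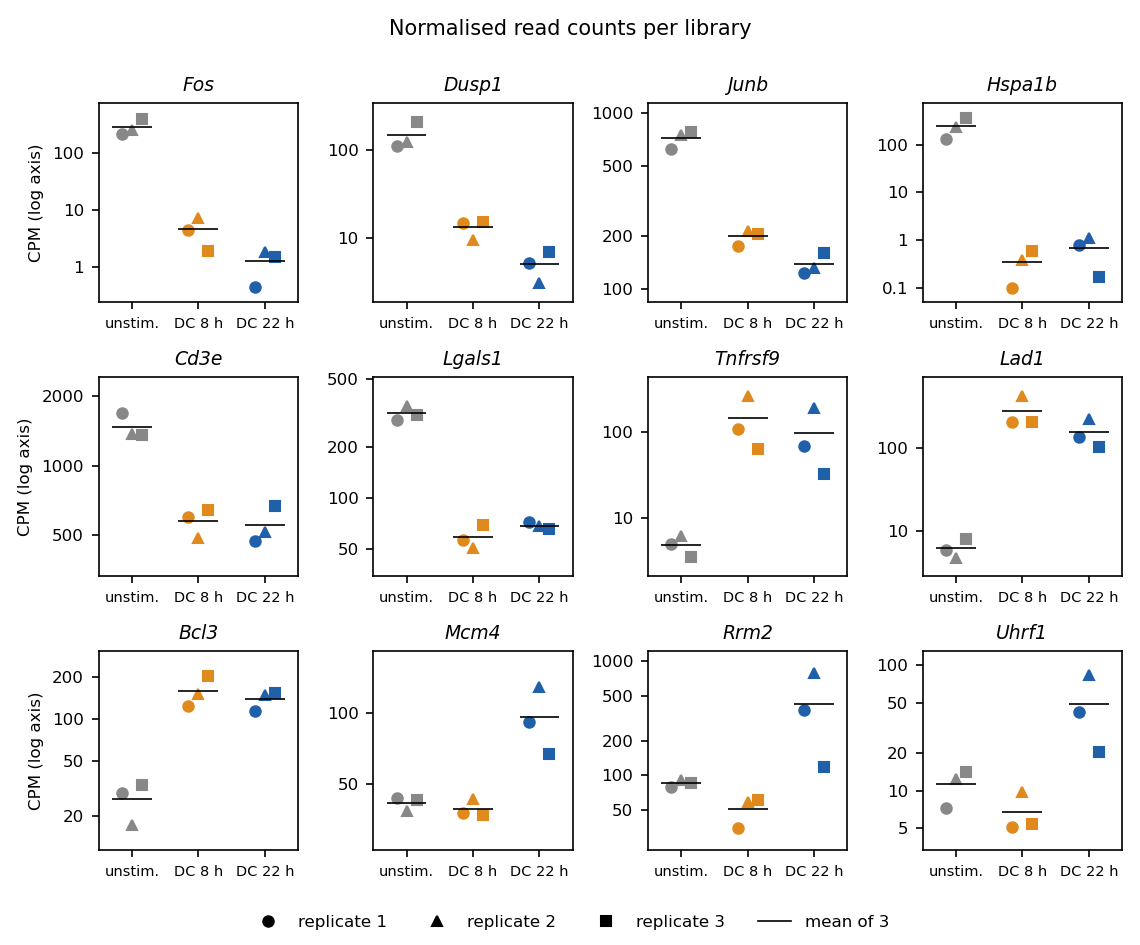
CPM on a log axis of 12 genes in each library of unstimulated, DC 8 h and DC 22 h cells; symbols mark the replicate number and the bar is the mean of 3 libraries. Fos, Dusp1, Junb and Hspa1b are low at both times, Tnfrsf9, Lad1 and Bcl3 are high at both, and Mcm4, Rrm2 and Uhrf1 are high at 22 h in the order replicate 2, 1, 3.

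NF-kappaB genes were higher in part. Of 24 tested, 5 were higher and 1, Tnfaip3, lower, with a median of 0.32 (0.18 without DC 22 h replicate 2). The higher count was 3 without unstimulated replicate 1 or 2 and 9 with library size alone. Bcl3, a nuclear cofactor of NF-kappaB p50 and p52, had 29.2, 17.2 and 33.5 CPM unstimulated and 114, 147 and 152 CPM at 22 h (log2 fold change 2.37 ± 0.25, adjusted p = 4.84e-05). Nfkb2, the precursor of p52, had 73.7, 91.1 and 46.8 CPM against 187, 224 and 177 CPM (log2 fold change 1.47 ± 0.21, adjusted p = 0.000396), and Traf1, an adaptor of TNF receptors, 24.4, 34.3 and 29.1 CPM against 75.9, 52.8 and 73.3 CPM (log2 fold change 1.20 ± 0.18, adjusted p = 0.000641). The groups did not overlap for these 3 genes. Nfkbia, the inhibitor IkappaB-alpha, had 298, 296 and 397 CPM against 355, 298 and 393 CPM and was not called (adjusted p = 0.846). The 250 bases before a start of Nfkb2 (chr19:46304487-46304736, plus strand) are shown since NF-kappaB proteins are known to bind this promoter, with kappaB matches in capitals, of which 2 overlap.
Nfkb2: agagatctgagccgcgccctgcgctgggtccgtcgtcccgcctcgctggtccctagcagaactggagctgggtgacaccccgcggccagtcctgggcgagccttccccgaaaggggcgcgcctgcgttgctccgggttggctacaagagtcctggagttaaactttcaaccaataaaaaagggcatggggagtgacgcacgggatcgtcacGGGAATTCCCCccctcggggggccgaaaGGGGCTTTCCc
A kappaB match, both strands searched, lay in 11 of 26 windows of 300 bases of this list (42.3%) and in 8.46% of all windows. Of the 9 genes with a match, 2 rose and 1 fell. Over the whole list 5 of 24 genes tested rose and 1 fell.

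Of 47 interferon-stimulated genes tested, 7 were higher and 2 lower, the median was -0.03, with 2 called higher without DC 22 h replicate 2 and 3 without any 1 unstimulated library. The counts were 12 higher and 0 lower with library size alone, and 3 and 2 without the immunofilament libraries. The lower count was 0 or 1 in fits with 1 library left out. Those of the 9 called in every fit were Parp14, an ADP-ribosyltransferase, at 43.5, 63.4 and 51.6 CPM against 18.5, 28.2 and 15.4 CPM (log2 fold change 1.35 ± 0.24, adjusted p = 0.00278), and Ly6a, the surface protein Sca-1, at 364, 1024 and 352 CPM against 114, 103 and 104 CPM (log2 fold change 2.44 ± 0.46, adjusted p = 0.0038). Both groups were apart in each gene, with replicate 2 highest. Gbp2, an interferon-induced GTPase, had 369, 894 and 256 CPM against 153, 124 and 116 CPM (log2 fold change 1.95 ± 0.46, adjusted p = 0.0157), and its adjusted p reached up to 0.0853 when DC 22 h replicate 2, unstimulated replicate 2 or unstimulated replicate 3 was left out. Cxcl10, a chemokine that attracts T cells, had 16, 85.3 and 14.3 CPM against 3.96, 4.16 and 9.08 CPM, with an adjusted p of 0.0286 that reached 0.201 without DC 22 h replicate 2 and was also lost without each unstimulated library. Isg15 and Ifit1, classical type I interferon targets, had 11.3, 12.4 and 12.8 CPM and 82.1, 85.9 and 106 CPM against 9.69, 24.9 and 16.8 CPM and 92.5, 155 and 123 CPM and were not called. The Gbp2 promoter (chr3:142620413-142620662, plus strand) is shown with its interferon-stimulated response element (ISRE) in capitals.
Gbp2: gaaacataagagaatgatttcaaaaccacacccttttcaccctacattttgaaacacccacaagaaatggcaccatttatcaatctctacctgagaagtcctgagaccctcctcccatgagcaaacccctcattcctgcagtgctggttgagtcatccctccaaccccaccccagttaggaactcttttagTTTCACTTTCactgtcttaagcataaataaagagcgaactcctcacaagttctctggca
The ISRE lay in 20 of 40 windows of this list (50.0%) and in 3.44% of all windows. Of the 20 genes with it 4 rose and none fell, and over the whole list 7 of 47 genes tested rose and 2 fell.

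Of 42 DNA replication genes tested, 25 were higher than in unstimulated cells and none lower, with a median of 1.30. The count fell to 8 without DC 22 h replicate 2, was 9, 10 and 11 without unstimulated replicates 1, 2 and 3, rose to 33 without DC 22 h replicate 3, and was 10 with only the 6 libraries compared in the fit and 15 without the immunofilament libraries. Rrm2, the regulatory subunit of ribonucleotide reductase, had 79.4, 90.2 and 85.4 CPM unstimulated, 34.3, 58 and 60.3 CPM at 8 h and 371, 788 and 117 CPM at 22 h (log2 fold change 2.32 ± 0.47, adjusted p = 0.00565). Uhrf1, which carries DNA methylation through replication, had 7.34, 12.5 and 14 CPM, 5.15, 9.81 and 5.43 CPM and 42.7, 84.1 and 20.3 CPM (log2 fold change 2.13 ± 0.42, adjusted p = 0.00496). Mcm4, a subunit of the replicative helicase, had 43.3, 38.3 and 42.4 CPM, 37.2, 42.8 and 36.9 CPM and 92.1, 129 and 67.1 CPM (log2 fold change 1.22 ± 0.24, adjusted p = 0.00482). In all 3, every DC 22 h library exceeded every other library shown, and the order at 22 h was replicate 2, then 1, then 3. The calls of these 3 against unstimulated cells held without each library in turn. That order was found in 39 of the 42 genes, against 24.2% of all genes tested.

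Of 30 mitosis genes tested, 3 were called higher against unstimulated cells and none lower, the median was 0.99 (0.33 without DC 22 h replicate 2), and none was called without DC 22 h replicate 2 or unstimulated replicate 2 or 3. The count was 1 without DC 22 h replicate 1 or unstimulated replicate 1 and 9 without DC 22 h replicate 3. It was 10 with library size alone, 6 with DESeq2 and 0 in fits of the 6 libraries compared or without the immunofilament ones. Replicate 2 was the highest DC 22 h library in 26 of the 30, and the order was replicate 2, 1, 3 in 25. Cdk1, the kinase that starts mitosis, had 33.2, 39.4 and 21.4 CPM unstimulated, 13.6, 12 and 13.2 CPM at 8 h and 89.6, 200.2 and 31.8 CPM at 22 h (log2 fold change 1.77 ± 0.45, adjusted p = 0.0242). Top2a, which untangles chromosomes, had 37.3, 51.1 and 42.1 CPM, 22.4, 35.3 and 30.2 CPM and 106, 157 and 39.1 CPM. Replicate 3 lay within the range of the unstimulated libraries for both genes. The adjusted p of Cdk1 reached 0.164 and that of Top2a 0.218 with 1 library left out, and both lost their calls without DC 22 h replicate 2 or any 1 unstimulated library, Top2a also without DC 22 h replicate 1. Mki67, the proliferation antigen Ki-67, had 22.6, 19.2 and 26.3 CPM, 11.1, 12.8 and 9.54 CPM and 44.5, 70.6 and 18.2 CPM, and was not called against unstimulated cells (adjusted p = 0.0997). The median mitosis gene was shifted by 0.81, 1.72 and -0.44 log2 units in replicates 1, 2 and 3.

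Against DC 8 h, 52 genes (0.48%) were called at 22 h, 41 higher (0.379%) and 11 lower (0.102%), and 22 of the 41 were in the DNA replication or mitosis lists. Both comparisons share the DC 22 h libraries. Cdc6, which loads the helicase at origins, had 1.39, 2.61 and 1.32 CPM at 8 h and 22.3, 39.9 and 7.09 CPM at 22 h (log2 fold change 3.69 ± 0.54, adjusted p = 0.00907), and 6.17, 6.33 and 5.59 CPM unstimulated. Clspn, a replication checkpoint adaptor, had 1.58, 4.22 and 2.2 CPM against 21.2, 61.4 and 11.5 CPM (log2 fold change 3.55 ± 0.54, adjusted p = 0.0102). The PCNA-associated factor 2810417H13Rik (Pclaf in GENCODE vM21) had 13.4, 17.5 and 27 CPM against 195, 398 and 62.1 CPM (log2 fold change 3.51 ± 0.48, adjusted p = 0.00661). For all 3, every 8 h library lay below every unstimulated one, and the call against 8 h was lost without DC 8 h replicate 1 (adjusted p = 0.0525 for each). Nrgn, a calmodulin-binding protein, had 0.495, 0.124 and 0.881 CPM against 10.9, 19.2 and 4.02 CPM. Bub1, a spindle checkpoint kinase, had 0.297, 0.497 and 0.147 CPM against 5.69, 10.4 and 1.28 CPM, and Tk1, thymidine kinase, 5.74, 3.35 and 3.67 CPM against 44, 84.4 and 10.8 CPM. Among the lower genes, Cdkn1a, the cell cycle inhibitor p21, had 1.03, 2.71 and 5.59 CPM unstimulated, 51.1, 169 and 46.1 CPM at 8 h and 17.4, 14.9 and 8.55 CPM at 22 h (log2 fold change -2.70 ± 0.51, adjusted p = 0.0268). Phlda3, an inhibitor of Akt that p53 induces, had 5.65, 28.1 and 7.34 CPM against 0.91, 1.77 and 0.342 CPM (log2 fold change -3.77 ± 0.75, adjusted p = 0.0283). Cd69 had 135, 291 and 121 CPM at 8 h, Dusp2 286, 516 and 272 CPM and Ppp1r15a 66.1, 35.6 and 61.5 CPM, all above their 22 h values. Arap2, a GTPase-activating protein, had 96.9, 167 and 149 CPM against 67, 58.3 and 54.5 CPM (log2 fold change -1.20 ± 0.19, adjusted p = 0.0126). The call of Nrgn was lost without DC 8 h replicate 1 or 2 (adjusted p up to 0.0936) and that of Arap2 without DC 8 h replicate 2 (0.0579). Those of Bub1, Tk1, Cdkn1a, Phlda3, Cd69, Dusp2 and Ppp1r15a were lost in 4 or 5 of the 6 fits with 1 library left out (adjusted p up to 0.271, for Phlda3). Of the 52 genes, 21 were higher and 6 lower in both comparisons, 2 were higher than unstimulated but lower than 8 h, 2 the reverse, and 21 were called against 8 h only.

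The call of these 52 rests on the spread pooled over all 15 libraries. In edgeR fits of only the 6 libraries compared, and in a fit without the 6 immunofilament libraries, 0 genes were called at an adjusted p under 0.05, with 776 and 911 at an unadjusted p under 0.05. DESeq2, run on all 15 libraries, called 210, and was not run on the smaller sets. With 1 library left out the count ran from 1, without DC 8 h replicate 1, to 138, without DC 22 h replicate 3. It was 15 without DC 22 h replicate 1, 19 without DC 22 h replicate 2, 13 without DC 8 h replicate 2 and 26 without DC 8 h replicate 3, and no gene of the 52 was called in all 6 fits. With the replicate number as a block the count was 49, of which 44 were among the 52.

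**Figure D3:**
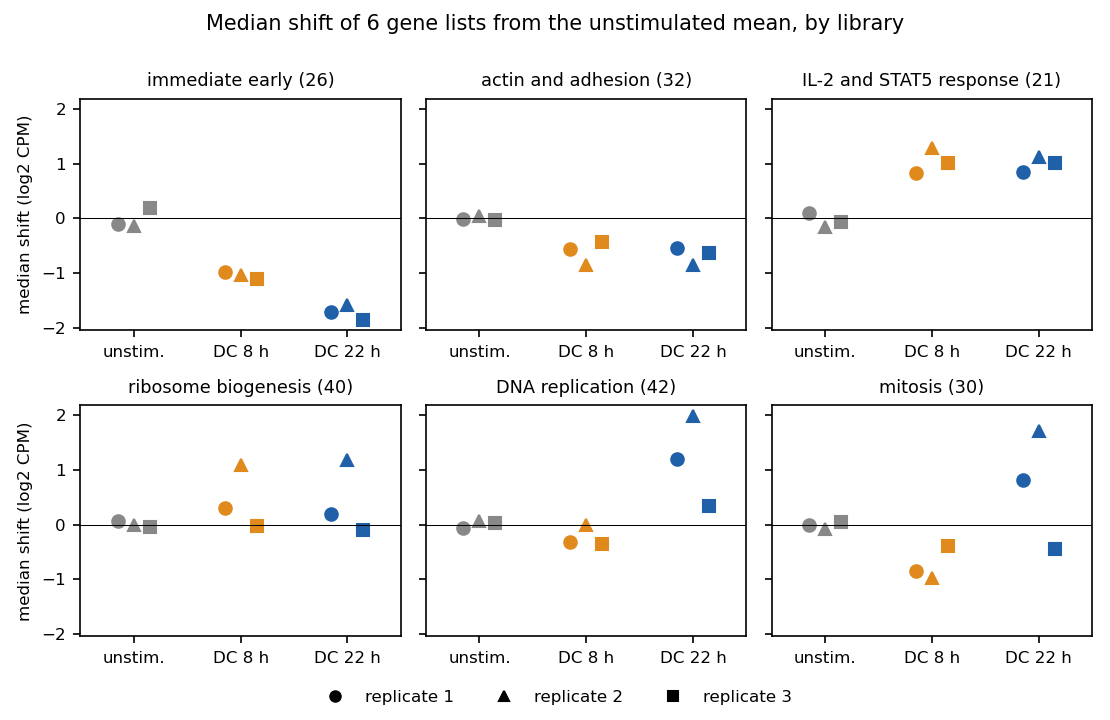
Median over each of 6 gene lists of the log2 CPM minus the mean of the unstimulated libraries, for every unstimulated, DC 8 h and DC 22 h library; symbols mark the replicate number and brackets give the genes tested. Immediate early and actin genes lie below 0 at both times, ribosome biogenesis stands out in replicate 2 at both times, and DNA replication reaches 1.20, 1.99 and 0.35 in replicates 1, 2 and 3 at 22 h.

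The promoters of Cdc6 (chr11:98907901-98908150, plus strand) and of a start of Uhrf1 (chr17:56304063-56304312, plus strand) are shown since E2F factors are known to drive S phase genes, with E2F sites in capitals (TTTCCCGC, TTTCGCGC, TTTGCCGC or TTTGGCGC on either strand).
Cdc6: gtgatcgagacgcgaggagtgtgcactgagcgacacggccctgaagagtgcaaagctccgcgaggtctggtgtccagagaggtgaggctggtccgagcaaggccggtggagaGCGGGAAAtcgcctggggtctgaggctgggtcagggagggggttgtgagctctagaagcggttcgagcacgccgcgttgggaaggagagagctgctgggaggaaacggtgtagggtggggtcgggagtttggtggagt
Uhrf1: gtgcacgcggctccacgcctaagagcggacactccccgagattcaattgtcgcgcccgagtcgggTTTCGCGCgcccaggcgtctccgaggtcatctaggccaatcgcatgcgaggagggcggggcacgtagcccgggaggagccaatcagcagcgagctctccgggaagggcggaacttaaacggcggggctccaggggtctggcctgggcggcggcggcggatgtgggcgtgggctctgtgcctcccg
An E2F site lay in 14 of 43 windows of 300 bases of the DNA replication list (32.6%) and in 2.26% of all windows. Of 36 genes with an entry 14 had the site, and 9 of these rose at 22 h and none fell. Over the whole list 25 of 42 genes tested rose and none fell, a share near that of the genes with the site. The E2F1 gene itself, E2f1, had 36.2, 66 and 13.4 CPM against 9.84, 12.7 and 10.5 CPM, with an adjusted p of 0.0278 that reached 0.161 with 1 library left out and held only without DC 22 h replicate 3.

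Most genes of the growth and biosynthesis lists were highest, among the DC 22 h libraries, in replicate 2. Of 40 ribosome biogenesis genes 2 were called higher, near the 3.41% of all genes tested, with a median of 0.52. The count was 10 with library size alone and 0 in fits of the 6 libraries compared or without the immunofilament ones. Without DC 22 h replicate 2 the median was 0.07 with 0 higher and 1 lower, without replicate 3 it was 0.78 with 7 higher, and 0 or 1 were higher without replicate 1 or any 1 unstimulated library. All 40 were highest in replicate 2 among the DC 22 h libraries, against 39.2% of all genes tested. Ncl, the nucleolar protein nucleolin, had 508, 437 and 449 CPM unstimulated and 755, 1424 and 651 CPM at 22 h (log2 fold change 1.02 ± 0.26, adjusted p = 0.025), and Npm1, nucleophosmin, 1519, 1268 and 1450.3 CPM against 2044, 3486 and 1484 CPM without a call (adjusted p = 0.0998). The call of Ncl was lost without DC 22 h replicate 2 or any 1 unstimulated library (adjusted p up to 0.123). No gene of 29 in the proteasome, 14 in the chaperonin or 28 in the respiratory chain list was called with all libraries, TMM scaling and the filter used throughout. A filter at a mean of 10 CPM gave 1, 1 and 0 higher, and DESeq2 called 1 higher, 1 higher and 1 lower. As many as 11, 9 and 2 were higher with library size alone, and without DC 22 h replicate 3 the counts were 1, 2 and 0. Replicate 2 was the highest DC 22 h library in 28, 14 and 26 of them. Psmc2, a proteasome ATPase, had 92, 151 and 90.9 CPM against 68.7, 73.2 and 60.1 CPM, and Tcp1, a chaperonin subunit, 85.4, 139 and 73.1 CPM against 67.2, 62 and 57.7 CPM. Of 22 glycolysis genes, Pgam1, phosphoglycerate mutase, was the called member at 389, 783 and 315 CPM against 219.6, 216 and 233 CPM, and its adjusted p rose from 0.0319 to 0.169 without DC 22 h replicate 2 and was also lost without each unstimulated library. The 1 of 22 called was near the share over all genes tested. Higher glycolysis genes numbered 6 with library size alone, 4 without DC 22 h replicate 3 and 0 in fits of the 6 libraries compared or without the immunofilament ones. Ldha, lactate dehydrogenase, had 873, 1806 and 595 CPM against 632, 625 and 574 CPM and was not called.

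Of 27 cholesterol and fatty acid genes 4 were higher and 0 lower, with 2 higher and 1 lower without DC 22 h replicate 2, 2 higher without any 1 unstimulated library or without the immunofilament libraries, 7 without DC 22 h replicate 3 and 10 with library size alone. Elovl6, a fatty acid elongase, had 14.8, 15 and 10.9 CPM unstimulated and 60.2, 39.7 and 62.5 CPM at 22 h (log2 fold change 1.99 ± 0.34, adjusted p = 0.0016), and Idi1, an isomerase of the mevalonate pathway, 2.06, 1.81 and 1.4 CPM against 10.8, 20.5 and 4.27 CPM (log2 fold change 2.72 ± 0.59, adjusted p = 0.00867). For Elovl6 replicate 2 was the lowest of the 3. Sqle and Cyp51, enzymes of sterol synthesis, had 13.8, 38.9 and 12 CPM and 27.1, 70.0 and 17.9 CPM at 22 h, and both calls were lost without DC 22 h replicate 2 or any 1 unstimulated library (adjusted p up to 0.186 and 0.187). Of 28 genes of amino acid supply 3 were higher and 4 lower, with 1 higher without DC 22 h replicate 2 or unstimulated replicate 1 or 3, 9 higher without DC 22 h replicate 3, and 1 or 2 lower without DC 22 h replicate 1 or any 1 unstimulated library. That became 9 higher and 1 lower with library size alone, and 2 higher and 1 lower in a fit of the 6 libraries compared. Trib3, a pseudokinase of the stress response, had no count in unstimulated libraries and 12.5, 2.88 and 9.14 CPM at 22 h, at least 14.6-fold higher against a floor of 3 counts per library (adjusted p = 0.00119). Slc38a2, an amino acid transporter, fell from 166, 164 and 202 CPM to 90.4, 85.4 and 114 CPM (log2 fold change -0.87 ± 0.17, adjusted p = 0.00398). On the mitochondrial chromosome 6 of 15 genes were lower and none higher, the clearest being mtAtp8, a subunit of ATP synthase, at 132, 130.3 and 129 CPM against 368, 352 and 401 CPM (log2 fold change -1.52 ± 0.20, adjusted p = 0.000323). With library size alone, or without unstimulated replicate 3, 3 of these 15 were lower.

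Genes of naive and resting cells separated replicate 2 from the others. Of 25 naive and homing genes 7 were lower and 1 higher, with a median of -0.45. The median was -0.10 without DC 22 h replicate 2 and -0.73 without replicate 3, and with library size alone it was -0.13 with 4 lower and 2 higher. Replicate 2 was lowest in 22 of 25, against 42.1% of all genes tested. Dtx1, an E3 ligase of the Notch pathway, had 309, 259.5 and 272 CPM unstimulated and 43.5, 35.5 and 41.3 CPM at 22 h (log2 fold change -2.81 ± 0.32, adjusted p = 8.34e-05). Cxcr4, the receptor of CXCL12, fell from 51.5, 82 and 86.8 CPM to 13.3, 8.52 and 25.5 CPM (log2 fold change -2.21 ± 0.36, adjusted p = 0.00137), and Itgb7, a gut homing integrin, from 318, 276 and 300.3 CPM to 153, 104 and 157 CPM (log2 fold change -1.11 ± 0.22, adjusted p = 0.00527). These were called without each library in turn. S1pr1, the receptor for exit from lymph nodes, had 522, 558 and 539 CPM against 539, 168 and 688 CPM, and Klf2, the factor that induces it, 866, 918 and 1001 CPM against 757, 290.4 and 807 CPM. Il7r, the interleukin-7 receptor, had 208, 156 and 146 CPM against 158, 45.9 and 168 CPM. In each, replicate 2 was far below every unstimulated library and below replicates 1 and 3, and none was called (adjusted p = 0.781, 0.253 and 0.52). Of 20 quiescence genes 1, Cblb, was higher and 1 lower, Tsc22d3, the glucocorticoid-induced leucine zipper, at 39.9, 14.7 and 46.2 CPM against 118, 138 and 133 CPM (log2 fold change -1.94 ± 0.37, adjusted p = 0.00398). Both quiescence counts were near the shares over all genes tested. Bach2, a repressor of effector genes, was the higher homing gene at 122, 113 and 144 CPM against 70.0, 60.2 and 44.7 CPM (log2 fold change 1.11 ± 0.24, adjusted p = 0.0089), and the call was just lost without unstimulated replicate 3 (adjusted p = 0.0501).

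Several effector genes were far higher in replicate 2 than in the other DC 22 h libraries. Gzmb, the protease granzyme B, had 147, 73 and 108 CPM unstimulated and 109.7, 591 and 187 CPM at 22 h (adjusted p = 0.11). Ifng, interferon gamma, had 12.9, 10.3 and 23.7 CPM against 4.67, 75.4 and 5.47 CPM, Ccl4, a chemokine, 38.8, 38 and 47.2 CPM against 25.5, 169 and 25.6 CPM, and Irf4, a factor graded by receptor signal strength, 10.3, 11.6 and 14 CPM against 6.37, 57.5 and 4.19 CPM. None of these passed the test. Without replicate 2 the log2 fold changes of Ifng, Ccl4 and Irf4 turned from 0.87, 0.83 and 0.93 to -1.59, -0.67 and -1.16 (adjusted p = 0.267, 0.35 and 0.245), and replicates 1 and 3 of Ifng, Ccl4 and Irf4 were below every unstimulated library. At 8 h replicate 2 was also the highest, with 5.45, 30.4 and 3.67 CPM of Ifng and 41.8, 128 and 27.6 CPM of Irf4. These genes, with S1pr1, Klf2 and Il7r, were picked after their values were seen. Of 21 effector molecules 2 were higher and 7 lower, with none higher without DC 22 h replicate 2 or any 1 unstimulated library and 4 lower without unstimulated replicate 1. Xcl1, a chemokine for cross-presenting dendritic cells, was higher at 34.7, 188 and 9.83 CPM against 7.63, 5.42 and 7.91 CPM, with an adjusted p of 0.0198 that reached 0.169 without DC 22 h replicate 2 and was also lost without each unstimulated library. Ccl5, a chemokine of memory cells, fell from 1067, 844 and 1111 CPM to 433, 197 and 565 CPM (log2 fold change -1.34 ± 0.30, adjusted p = 0.0119), Nkg7, a granule protein, from 645, 596 and 507 CPM to 228, 356 and 229.6 CPM (log2 fold change -1.10 ± 0.24, adjusted p = 0.00862), and Gzmm, granzyme M, from 8.51, 7.95 and 8.84 CPM to 0.797, 1.11 and 0.171 CPM (log2 fold change -3.61 ± 0.79, adjusted p = 0.00973). With library size alone 5 effector molecules were higher and 3 lower, and the median changed sign from -0.28 to 0.05, as it did without DC 22 h replicate 1 (0.10) and unstimulated replicates 1 (0.25) and 3 (0.11). Among transcription factors of effector fate, Zeb2, a transcription factor that promotes terminal effector differentiation, fell from 10.1, 12.8 and 8.61 CPM to 1.93, 0.664 and 1.54 CPM (log2 fold change -2.92 ± 0.45, adjusted p = 0.000975), and Ikzf2, Helios, rose from 27.7, 28.7 and 24.4 CPM to 64.6, 99.8 and 59.7 CPM (log2 fold change 1.47 ± 0.29, adjusted p = 0.0046).

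**Figure D4:**
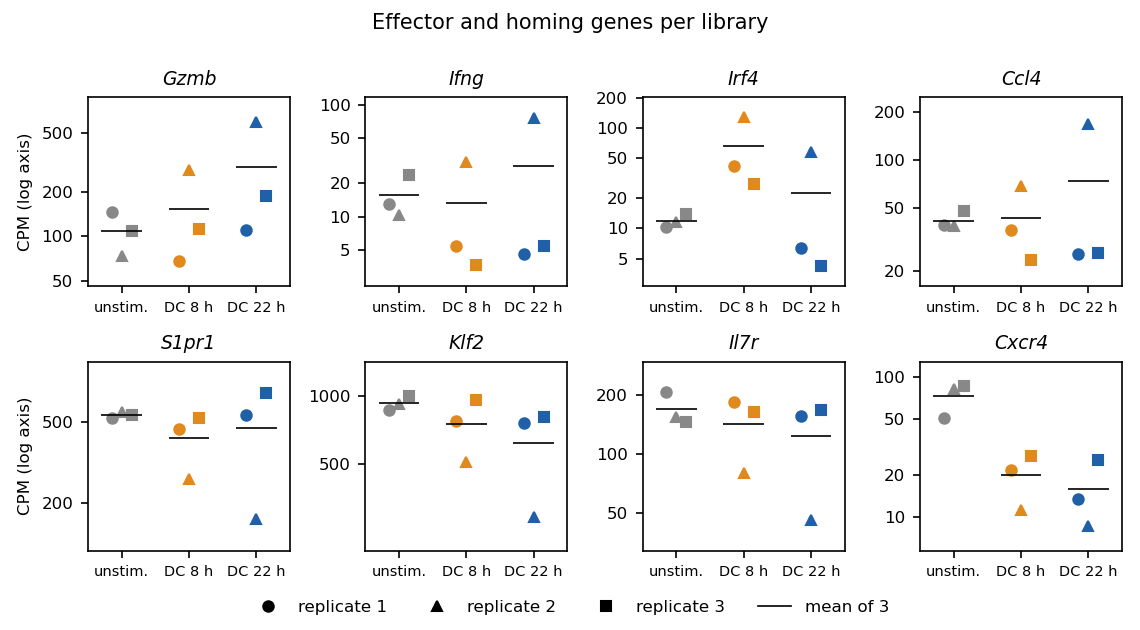
CPM on a log axis of 4 effector and 4 homing genes in each library; symbols mark the replicate number and the bar is the mean of 3. Among the DC 22 h libraries, replicate 2 is the highest for Gzmb, Ifng, Irf4 and Ccl4 and the lowest for S1pr1, Klf2, Il7r and Cxcr4.

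The size of the change was compared between replicates over genes called without the library in question. Such genes were chosen on the other libraries, so a library left out tends to fall short of them. Of 540 genes called without replicate 2, it lay outside the unstimulated range in the called direction in 92.6%, beyond both other DC 22 h libraries in 44.6% and short of both in 42.0%. For genes that fell, replicate 2 was beyond both others in 53.8% and short of both in 31.1%, and for genes that rose in 32.0% and 57.0%. Genes were counted where they were also tested with all libraries. Of 568 genes called without replicate 1, that library was beyond both others in 12.3% and short of both in 30.6%. Of 982 genes called without replicate 3, that library was beyond both others in 6.72% and short of both in 74.9%, with a median shift of 0.70 log2 units against 1.23 for the other libraries. Replicate 3 was short of both others in most of these genes, which their choice on the other libraries favours. Each library was read on a different set of genes, so the shares are not a strict ranking of the replicates. Replicate 2 had the largest median shift in the ribosome biogenesis (1.18), DNA replication (1.99), mitosis (1.72) and naive and homing (-1.14) lists. It did not in the immediate early list, whose median shift was -1.72, -1.58 and -1.85 in replicates 1, 2 and 3.

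**Figure D5:**
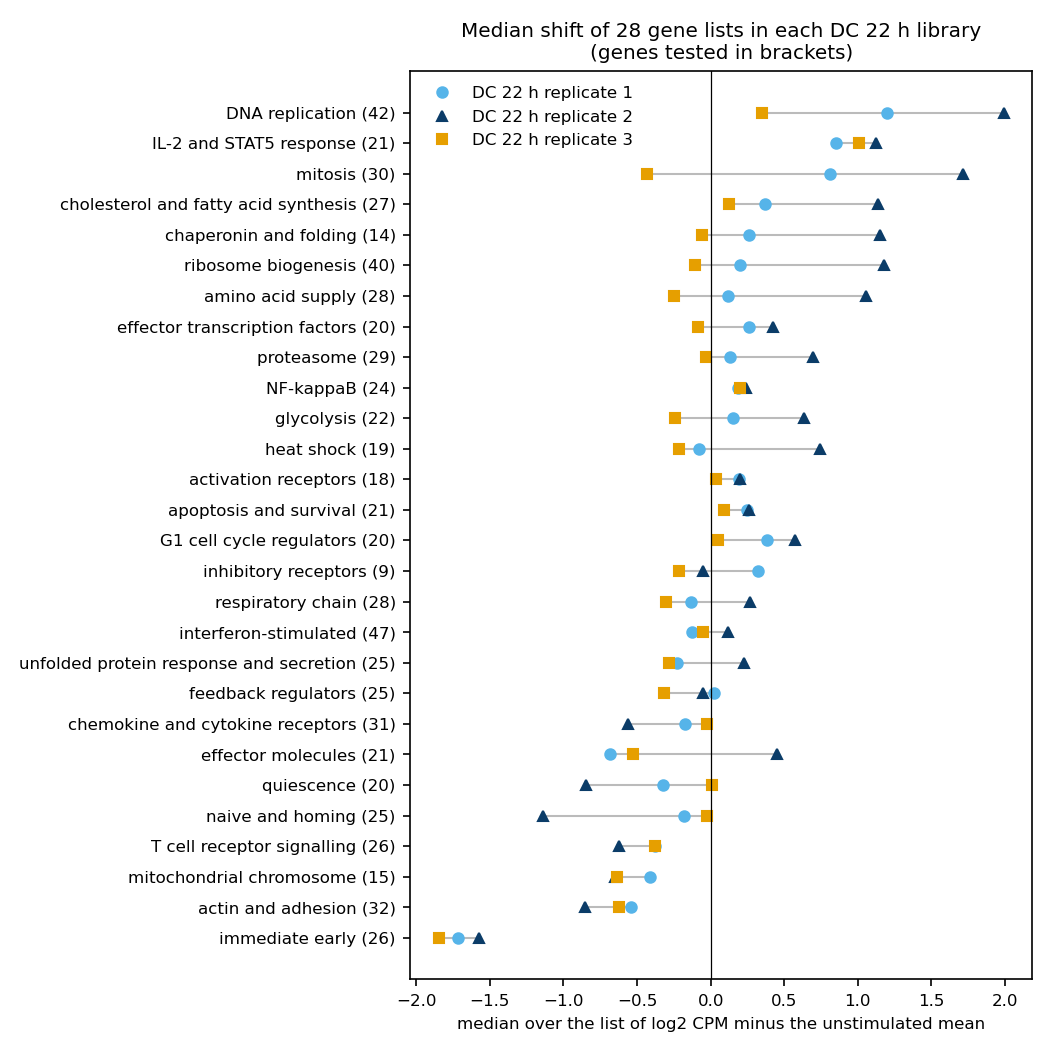
Median over each of 28 gene lists of the log2 CPM minus the unstimulated mean in each DC 22 h library; brackets give genes tested and grey lines join the lowest and highest library. NF-kappaB and activation receptor lists lie close together in the 3 libraries, whereas mitosis spans -0.44 to 1.72 and naive and homing genes -1.14 to -0.03.

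Markers of other cells were read for the whole of each list. Of 23 dendritic cell markers with a row, none was at 0 in all DC 22 h libraries, and the summed level was 216 to 257 CPM at DC 22 h, 250.1 to 395 CPM unstimulated and 310.0 to 395 CPM at DC 8 h. Of 18 tested, 4 were higher and 5 lower, with 3 lower without DC 22 h replicate 1 or 2 or unstimulated replicate 2 or 3. Fscn1, an actin bundler of mature dendritic cells, had 0, 0.181 and 6.75 CPM unstimulated, 168, 132 and 126 CPM at 8 h and 94.8, 87.6 and 72.9 CPM at 22 h (log2 fold change 5.42 ± 0.84, adjusted p = 0.000932). Ccl22, a chemokine of mature dendritic cells, had 0.147, 0 and 0 CPM against 10.1, 11.1 and 6.41 CPM (log2 fold change 6.94 ± 0.97, adjusted p = 0.000396), and Cacnb3, a calcium channel subunit, 0.147, 0.542 and 0.466 CPM against 8.42, 13.9 and 13.8 CPM (log2 fold change 4.98 ± 0.77, adjusted p = 0.000943). Xcr1, the receptor of cross-presenting dendritic cells, went the other way at 0.228, 0.111 and 0.256 CPM against 9.54, 17.2 and 45.6 CPM (log2 fold change -6.79 ± 1.20, adjusted p = 0.00223), as did Cst3, cystatin C, at 109, 89.7 and 92.7 CPM against 199, 174 and 291 CPM (log2 fold change -1.19 ± 0.21, adjusted p = 0.00236). The 7 genes of MHC class II presentation summed to 286 to 480.2 CPM at DC 22 h and 599.5 to 907 CPM at DC 8 h. Unstimulated sums were 551, 464 and 1208 CPM, so unstimulated replicate 3 stood apart. Among the DC 22 h libraries all 7 were lowest in replicate 2. Of the 7, 1 was called lower, and 0 or 1 in fits with 1 library left out, with medians of -0.87 to -0.20. The part of dendritic cell RNA in the rises of Fscn1, Ccl22 and other genes was not tested.

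Markers of neutrophils, red cells and B cells had lower summed levels at 22 h, those of NK cells and of monocytes and macrophages overlapped, and the list for CD4 and regulatory T cells summed higher. Of 7 neutrophil markers with a row, 6 were at 0 in all DC 22 h libraries, with summed levels of 0 to 0.797 CPM against 5.78 to 25.6 CPM unstimulated. Elane, neutrophil elastase, had 4.99, 4.16 and 6.52 CPM unstimulated and no count at 22 h, at least 16.9-fold lower against a floor of 3 counts per library. Of 4 erythrocyte markers with a row, 3 were at 0 in all DC 22 h libraries, with sums of 2.56 to 8.52 CPM against 24.4 to 57.7 CPM. Car1, carbonic anhydrase of red cells, had 22.5, 13.6 and 31.9 CPM and then no count, at least 73.04-fold lower. The 8 B cell markers summed to 8.18 to 30.9 CPM at 22 h against 35.6 to 42.6 CPM, and none of the 6 tested was called by edgeR or DESeq2. Igj, the J chain of secreted antibody and among the strongest falls, had 38.2, 27.3 and 41.4 CPM against 3.53, 0.664 and 0 CPM (log2 fold change -4.72 ± 1.00, adjusted p = 0.00797), and Dnase1l3, a nuclease of myeloid cells, 21, 11.7 and 23.7 CPM against 1.25, 0.442 and 0.598 CPM (log2 fold change -4.61 ± 1.01, adjusted p = 0.00942). The 8 NK cell markers with a row summed to 90.4 to 143 CPM against 128 to 139.9 CPM, and the 10 of monocytes and macrophages to 115 to 175 CPM against 154 to 171 CPM. The 5 markers of CD4 and regulatory T cells summed to 62.6 to 101.3 CPM against 25.1 to 36 CPM, most of it Ikzf2 (Helios), a transcription factor also made by activated T cells, which rose (log2 fold change 1.47 ± 0.29, adjusted p = 0.0046). Cd4 was at 0 in both groups and Foxp3, the factor that defines regulatory T cells, at 0 in all DC 22 h libraries. The part of these cells in the changes was not tested.

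Some named genes share bases with others. Of 156 genes taken by the naming rule 152 matched the GENCODE vM21 annotation of GRCm38, all on the chromosome the tables give. Of these, 42 share an exonic base with a gene on the opposite strand, among them Dusp1 with Ergic1, Ppp1r15a with Tulp2, Junb with Prdx2 and Tk1 with Afmid, and 9 with a gene on the same strand, such as Parp14 and Ncl. Whether counting used the strand was not given in the sources used here, so reads of such partners cannot be told apart.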

How the data were processed

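The authors deposited raw read counts per gene for bulk RNA made with an adapted CEL-seq protocol, per the labels' protocols. BWA and mm10 are named in the submitters' processing notes, without a version. The annotation, the use of strand and of molecular identifiers were not given in the sources used here. Tables were joined by gene symbol. edgeR 4.0.16 (R 4.3.3, limma 3.58.1) fitted group means over all 15 libraries, so that the spread is pooled, after its filter on low counts (minimum count 10, minimum total 15) and TMM scaling. Pairs of libraries differed more at DC 22 h (chi-square per degree of freedom 24.1 to 105) than unstimulated (10.7 to 16.1), with unequal depth. A pooled spread does not separate the groups in this. Prior counts were 0.125 for fold changes and 2 for library shifts. The SE is the absolute log2 fold change divided by the square root of F. The script was tested on simulated counts.

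Genes named from the whole table were the 12 highest and 12 lowest called fold changes (6 and 6 against 8 h), whose higher group averaged 50 counts or more, with over 3 counts in a library of the lower group, and no overlap of the groups. Any list member may also be named. Members and lists were chosen with earlier results of these data known. Alternatives were DESeq2 1.42.0, other scalings, filters and thresholds, thinned counts, fewer groups, a replicate block and left-out libraries.

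Same-numbered DC 8 h and DC 22 h libraries deviated together from their group means (correlations 0.116, 0.399 and 0.238, against -0.307 to 0.117 for other numbers), whereas unstimulated and DC 22 h ones did not (-0.0014, -0.0069 and -0.010). For replicate 1 the value was no higher than that of DC 8 h replicate 3 with DC 22 h replicate 1 (0.117). The immunofilament libraries (artificial polymer stimulus) entered the fit and are not described. Some named-gene results are not reported here.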

Additional observations from a re-analysis of the deposited data

Results flagged for a closer look

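In 20 named genes the level with dendritic cells differed between 22 h and 8 h by the edgeR quasi-likelihood test of the difference. That is the reason each is given here. Values are log2 fold changes of DC 22 h over DC 8 h with n = 3 libraries each. Among DNA replication and mitosis genes the differences were 3.69 for Cdc6 (adjusted p = 0.00907), 3.43 for Tk1 (0.0399), 3.07 for Rrm2 (0.0107), 2.85 for Uhrf1 (0.0102), 2.31 for E2f1 (0.0399) and 1.30 for Mcm4 (0.0232). They were 4.12 for Bub1 (0.0283), 3.05 for Cdk1 (0.0107), 1.99 for Mki67 (0.0189) and 1.78 for Top2a (0.0286). Outside those lists the higher genes were Nrgn at 4.50 (0.0128), Clspn at 3.55 (0.0102) and 2810417H13Rik at 3.51 (0.00661). The lower genes were Phlda3 at -3.77 (0.0283), Cdkn1a at -2.70 (0.0268), Ppp1r15a at -1.44 (0.0268), Cd69 at -1.43 (0.0283), Dusp2 at -1.27 (0.0283), Arap2 at -1.20 (0.0126) and Anxa2, a calcium-dependent membrane binder, at -1.19 (0.0128). Each of these calls was lost in at least 1 of the 6 fits with a library left out, and all of them in the fits without the immunofilament libraries. Those of Mcm4, E2f1, Mki67, Top2a, Bub1, Tk1, Phlda3 and Cd69 held in only 1 of the 6. Those of Cdkn1a, Dusp2 and Ppp1r15a held in 2 of the 6. Mitochondrial ribosomal RNA was highest in DC 22 h replicate 3, which among the 3 DC 22 h libraries had the lowest level of the DNA replication genes listed here, and its part was not tested.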

How the results depend on the processing

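For DC 22 h against unstimulated cells, where 840 genes were called, the count was 1586 with library size alone, 1278 with no filter on low counts, 1267 with DESeq2, 517 with only the 6 libraries compared in the fit and 335 at an adjusted p of 0.01, and 454 to 984 with 1 library left out. For DC 22 h against DC 8 h, where 52 were called, it was 251 with no filter, 210 with DESeq2, 4 at an adjusted p of 0.01, 0 with only the libraries compared and 0 without the immunofilament libraries, a fit chosen after seeing the data (776 and 911 genes at an unadjusted p under 0.05), and 1 to 138 with 1 library left out. The replicate block gave 785 and 49 genes. DESeq2 size factors, a mean of at least 10 CPM and thinning to the smallest library kept both counts within 1.5 times (843, 761 and 755, and 52, 41 and 53). Of 185 fold changes of genes, 10 changed sign under at least 1 of these alternatives and none of the 10 was called: Ifng, Ccl4 and Irf4 without DC 22 h replicate 2, S1pr1 and Nfkbia there and elsewhere, Egr2, and 4 genes the text does not name. The median of 6 of 37 lists changed sign with library size alone and of 0 with DESeq2 size factors. Low-count genes are limited by depth, and a group at 0 gives a bound only. With 3 libraries a group, and 2 where 1 was left out, a call lost in such a fit also reflects fewer samples.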
